A study of Mus musculus with 12 samples.

Results

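Freshly isolated cardiomyocytes were compared with freshly isolated cardiac fibroblasts from newborn mouse hearts, over every gene with at least 1 CPM (counts per 1000000 assigned reads) in at least 2 of the 4 libraries of these cells. This rule kept 13623 of the 23423 genes in the deposited table. Of these, 12911 reached 1 CPM in all 4 libraries, 295 passed through the cardiomyocyte libraries alone, 187 through the fibroblast libraries alone, and 230 through libraries of both kinds. The direction of a gene that passed through 1 cell type alone was set by the rule. Among the genes named below these are Xirp2, Abra, Asb5, Cd3d, Chac1, Fgf9, Ifit1, Ms4a1, Nog and Plin5 on the cardiomyocyte side. Cpt1b, shown in a figure, is also on that side. On the fibroblast side they are Dyx1c1, Hhip, Hoxd4, Itga11 and Mcpt4. The values of all these genes are given as a description.

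Both cell types came from CD1 mice at postnatal day 1.5, with no transgene or treatment given in the labels, and polyadenylated RNA was sequenced. The cardiomyocytes (2 libraries) were prepared with a commercial neonatal isolation system, and the labels name no sort for them. The fibroblasts (2 libraries) were released by enzyme digestion and purified on magnetic beads for the surface protein Thy1. The remaining 8 libraries of the series are cultured fibroblasts 3 days after viral transduction. They are 2 libraries each with a control vector (lacZ in the titles), with MGT (the heart factors Mef2c, Gata4 and Tbx5), with MGT and the hairpin shNT, and with MGT and shPtbp1. They served here to estimate the spread between replicates. Nothing in the labels says whether the libraries of a cell type came from separate animals or preparations, so the p-values reflect the spread among libraries alone, and that spread may be technical.

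A cardiomyocyte is the contracting cell of heart muscle. It turns mainly to fatty acids and lactate for fuel, fills much of its volume with mitochondria, and couples each electrical impulse to a release of calcium that makes the sarcomeres shorten. Cardiac fibroblasts build and remodel the collagen-rich matrix around the muscle cells, and answer to growth factors, Wnt, Hedgehog and TGF-beta signals. In the days after birth the heart muscle is moving from carbohydrate towards fat as its fuel.

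The libraries held 49320858 and 72369864 assigned reads for cardiomyocytes, and 90328498 and 72626731 for fibroblasts. Values below are scaled CPM (CPM divided by a library factor), and fold changes are log2 values of cardiomyocytes over fibroblasts on the log2(scaled CPM + 0.5) scale, which understates the change of low genes. A gene was called when its adjusted p was below 0.05 by limma, with Benjamini-Hochberg adjustment over 13977 tested genes. Of the genes given library by library below, Ckb and Mki67 overlapped between the cell types, and the others did not. The replicates lay close together, with a root mean square SD of 0.0914 log2 units in cardiomyocytes and 0.0796 in fibroblasts.

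At this precision most genes differed. Among the 13623 genes, 4853 were higher in cardiomyocytes (35.6%) and 5754 were lower (42.2%), so 77.9% were called in one direction or the other, and 89.7% did not overlap between the groups. These shares are the background for the counts below. Which side was larger depended on the fit, since with only the 4 fresh libraries in it 5516 genes were higher and 5480 lower. Without the genes that passed through 1 cell type alone, 34.7% of 13141 genes were higher, 42.5% were lower and 89.3% did not overlap. Most of the calls were small, since 6428 of them (60.6%) were under 1.5-fold. A change of at least 2-fold was called for 1151 genes higher (8.45%) and 557 lower (4.09%), together 12.5%. The large changes leaned to cardiomyocytes: 314 genes were at least 4-fold higher and 24 at least 4-fold lower, and at 8-fold the numbers were 85 and 2. Without the genes that passed through 1 cell type alone, the numbers higher and lower were 944 (7.18%) and 489 (3.72%) at 2-fold. They were 261 and 15 at 4-fold and 78 and 2 at 8-fold. The 90% of genes in the middle lay between -0.94 and 1.40, with a median of -0.05. In the fit of only the 4 fresh libraries the median was -8e-04.

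**Figure D1:**
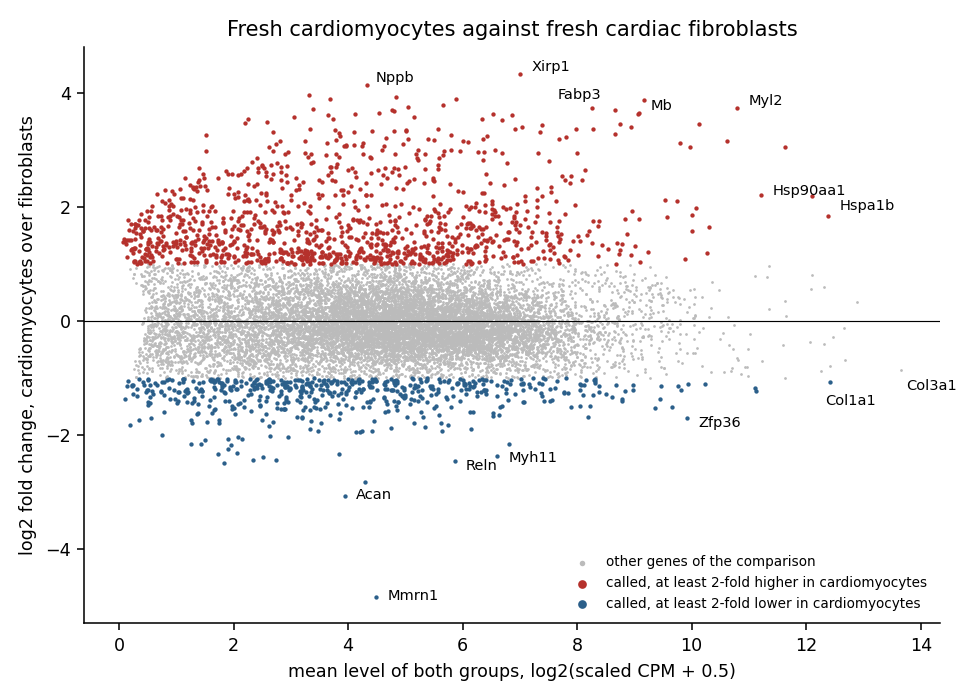
Each point is 1 of the 13623 genes, with the mean level of both groups on the x axis in log2(scaled CPM + 0.5) and the log2 fold change of cardiomyocytes over fibroblasts on the y axis; red points are called and at least 2-fold higher in cardiomyocytes, blue points called and at least 2-fold lower. The red cloud reaches 4.34 (Xirp1) at high and low levels, whereas few blue points lie below -2, with Mmrn1 at -4.84.

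Each preparation held transcripts that are typical of the other. The 26 sarcomere genes stood at a median of 10.3% of their cardiomyocyte level in the Thy1-sorted fibroblasts, with a range of 6.61% (the titin cap Tcap) to 27.4% (tropomyosin Tpm1). In the other direction, 31 collagen genes stood in cardiomyocytes at a median of 58.6% of their fibroblast level, and 38 fibroblast identity genes at 65.1%. Thy1 itself, the protein used for the sort, had 70.4 and 69.1 scaled CPM in cardiomyocytes, against 146 and 148 in fibroblasts, a log2 fold change of -1.07 (SE 0.059, adjusted p = 4.82e-12 by limma). Expressed per kb of exon, the fibrillar collagen Col3a1 ranked 10 among all genes in cardiomyocytes and 2 in fibroblasts, while the ventricular light chain Myl2 ranked 4 in cardiomyocytes and 215 in fibroblasts. In bulk RNA, fewer cells of a type and less RNA per cell cannot be told apart, and the part of carried-over cells or RNA in the values below was not tested.

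Transcript length moved with the comparison as well. For the 25% of genes with the shortest exon sequence (0.281 to 2.13 kb), the median log2 fold change was 0.213, with 52.6% higher in cardiomyocytes and 22.4% lower. In the longest 25% (5.06 kb and above) the median was -0.234, with 23.7% higher and 59.2% lower. Among the lists described below, those whose median exon length lies in the shortest class are the respiratory chain (1.11 kb), cytosolic translation (1.15 kb), the mitochondrial ribosome (1.3 kb), granulocyte and mast cell markers (1.34 kb), coenzyme Q and iron (2.01 kb), amino acid and endoplasmic reticulum stress (2.08 kb) and macrophage markers (2.12 kb), with fatty acid oxidation at its edge (2.13 kb). Those in the longest class are collagens (6.46 kb), chromatin regulators (6.01 kb), axon guidance (5.98 kb), lymphatic markers (5.37 kb) and imprinted genes (5.13 kb). Lymphocyte and red cell markers had a length for too few genes to be placed. The part of length in the results was not tested.

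Outside the sarcomere list, and among genes whose mean in the higher cell type was 10 scaled CPM or more, the 20 largest increases lay between 3.45 and 4.34. Xirp1, which encodes a Xin repeat protein that binds actin at the intercalated disc, had 245 and 243 scaled CPM in cardiomyocytes, against 11.0 and 12.1 in fibroblasts (4.34, SE 0.07, adjusted p = 9.05e-20 by limma). Its relative Xirp2 had 17.9 and 18.5 scaled CPM in cardiomyocytes, against 0.669 and 0.73 in fibroblasts (3.96). Nppb encodes B-type natriuretic peptide, the hormone released by stretched heart muscle, and had 38.5 and 36.7 scaled CPM in cardiomyocytes, against 1.69 and 1.63 in fibroblasts (4.14). Ppp1r3a, the subunit that brings protein phosphatase 1 to glycogen in striated muscle, had 23.4 and 23.7 scaled CPM in cardiomyocytes, against 1.23 and 1.0 in fibroblasts (3.90). In Xirp1, Nppb and Ppp1r3a, which passed the rule in both cell types, the replicates differed little beside the gap between the groups.

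The 250 bases before the annotated start of Xirp2, Ppp1r3a and Nppb are shown because they hold motifs of factors known to act in heart muscle, beside those of the muscle phosphoglycerate mutase Pgam2 and its housekeeping copy Pgam1, whose changes are described further on. Sequences are from RefSeq (GRCm38.p6), written along the gene's strand. Capitals mark a MEF2 site (bound by MEF2 proteins), an M-CAT motif (CATTCC or its complement, bound by TEAD proteins) or an E box (CAGCTG, bound by basic helix-loop-helix proteins).
Xirp2, chr2:67445752-67446001, plus strand: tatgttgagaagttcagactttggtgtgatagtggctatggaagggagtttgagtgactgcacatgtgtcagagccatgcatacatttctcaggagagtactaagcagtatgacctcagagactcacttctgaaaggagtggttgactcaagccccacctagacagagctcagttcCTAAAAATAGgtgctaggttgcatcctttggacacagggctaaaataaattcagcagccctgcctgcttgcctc
Ppp1r3a, chr6:14755275-14755524, minus strand: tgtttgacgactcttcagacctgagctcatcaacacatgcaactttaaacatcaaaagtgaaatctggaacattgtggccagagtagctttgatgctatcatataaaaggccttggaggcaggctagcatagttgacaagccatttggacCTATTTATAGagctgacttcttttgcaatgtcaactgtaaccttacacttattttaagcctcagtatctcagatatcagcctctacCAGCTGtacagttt
Nppb, chr4:147985650-147985899, plus strand: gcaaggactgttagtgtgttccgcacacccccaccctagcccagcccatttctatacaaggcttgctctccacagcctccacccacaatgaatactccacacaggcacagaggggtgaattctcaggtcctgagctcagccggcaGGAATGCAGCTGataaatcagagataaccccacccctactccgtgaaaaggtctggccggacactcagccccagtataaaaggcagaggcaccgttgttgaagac
Pgam2, chr11:5803797-5804046, minus strand: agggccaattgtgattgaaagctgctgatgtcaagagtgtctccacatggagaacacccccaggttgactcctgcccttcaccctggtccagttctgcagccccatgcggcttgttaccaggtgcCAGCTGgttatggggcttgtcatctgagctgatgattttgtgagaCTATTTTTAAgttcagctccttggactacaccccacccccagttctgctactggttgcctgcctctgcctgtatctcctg
Pgam1, chr19:41911621-41911870, plus strand: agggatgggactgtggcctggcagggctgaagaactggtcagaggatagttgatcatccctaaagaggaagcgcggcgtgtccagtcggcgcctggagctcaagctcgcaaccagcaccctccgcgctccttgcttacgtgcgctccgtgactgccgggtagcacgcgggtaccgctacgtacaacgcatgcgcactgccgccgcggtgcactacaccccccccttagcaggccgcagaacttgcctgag

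Xirp2 held a MEF2 site that begins 74 bases before the start, Ppp1r3a one at 100 bases before it, and Pgam2 one at 80 bases before it. Ppp1r3a and Pgam2 also held an E box. Nppb held an M-CAT motif directly followed by an E box, at 105 and 99 bases before the start. None of these motifs was in the window of Pgam1. They were also absent from the windows of Smpx, Adprhl1, Slc7a11, Mb, Fabp3, Irg1 and Mov10l1, large increases described next. For Mb only the first of 3 annotated windows was searched, so its other starts may hold them. Of the large increases described further on, Cox8b and Ckmt2 held an E box and Eno3 an M-CAT motif. Among genes higher in fibroblasts, Acan held an M-CAT motif and an E box, and Cx3cr1 and F13a1 an E box, while Reln, Serpina3n and Il6 held none. A match is a description of the letters, and no binding was measured.

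Smpx, a small protein of the muscle costamere, had 111 and 110.4 scaled CPM in cardiomyocytes, against 7.01 and 6.92 in fibroblasts (3.90). Adprhl1, a heart-expressed relative of the ADP-ribosyl hydrolases, had 94.5 and 93.1 scaled CPM in cardiomyocytes, against 6.1 and 6.51 in fibroblasts (3.79). The oxygen store myoglobin, Mb, had 1018 and 981 scaled CPM in cardiomyocytes, against 75.8 and 82.6 in fibroblasts (3.65), and the heart fatty acid carrier Fabp3 had 992 and 977 scaled CPM in cardiomyocytes, against 78.9 and 78.0 in fibroblasts (3.64). Per kb of exon, Fabp3 ranked 22 among all genes in cardiomyocytes and 444 in fibroblasts. The leiomodins Lmod3 (3.62) and Lmod2 (3.59), which lengthen thin filaments, and Abra (3.50), an activator of serum response factor signalling, were also among the 20 largest of these increases. So were 3 genes with no known part in muscle structure. Slc7a11, the cystine importer, had 18.5 and 19.5 scaled CPM in cardiomyocytes, against 0.867 and 1.08 in fibroblasts (3.73). Irg1, the enzyme that makes itaconate in activated myeloid cells, had 31.4 and 32.1 scaled CPM in cardiomyocytes, against 2.13 and 2.09 in fibroblasts (3.63). Mov10l1, an RNA helicase best known from the germline, had 24.5 and 23.9 scaled CPM in cardiomyocytes, against 1.48 and 1.72 in fibroblasts (3.55).

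**Figure D2:**
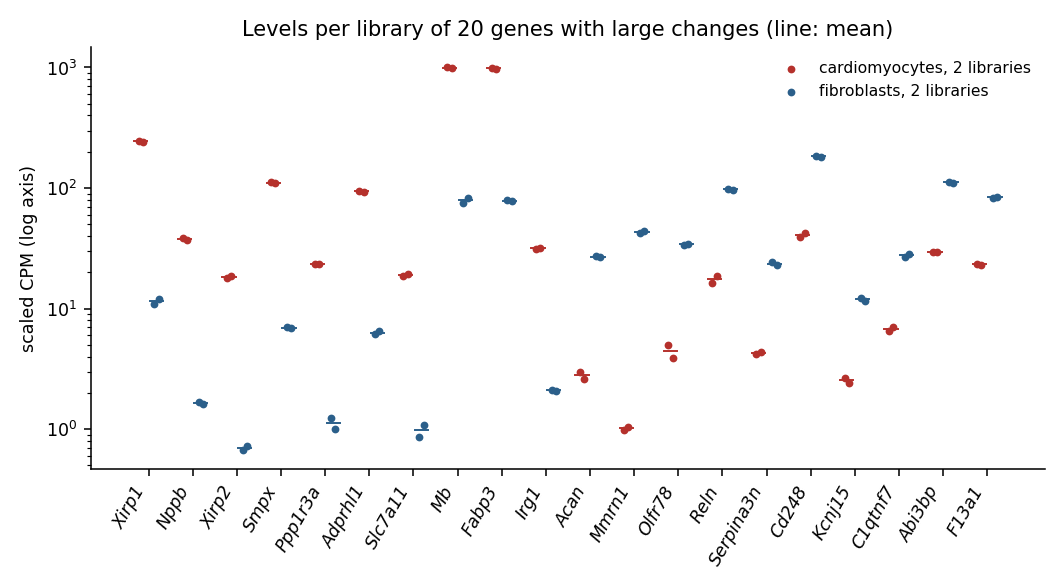
Scaled CPM (log axis) of 20 genes with large changes, with 1 point per library; cardiomyocytes (red) stand left of fibroblasts (blue) and short lines mark the means of 2 libraries. The genes were picked from the largest changes among genes without overlap, so the groups do not overlap in any of them by choice. Over all genes 89.7% did not overlap. Mb and Fabp3 are the most abundant of them, with means of 999 and 984 in cardiomyocytes.

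List counts here and below are over the genes that met the 1 CPM rule. At most 3 genes of a list passed it through 1 cell type alone, except for 5 in the list of muscle protein upkeep. Of 28 sarcomere genes 26 met it, and every one of the 26 was called higher. Their median log2 fold change was 3.27, and they are used here mainly as the check of the label. Myl3, an essential light chain of ventricular myosin, had 1094 and 1067 scaled CPM in cardiomyocytes, against 73.3 and 72.2 in fibroblasts (3.88). Tnni1, the slow skeletal troponin I that the fetal heart uses, had 586 and 551 scaled CPM in cardiomyocytes, against 39.8 and 44.9 in fibroblasts (3.73). The smallest change of the list was that of Tpm1 (1.87), which fibroblasts also use in their actin cables.

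The next list holds proteins that fold, protect and turn over the contractile apparatus. All 28 genes of this list were higher and each by at least 2-fold, with a median of 2.31. Without the 5 that passed through cardiomyocyte libraries alone, 23 of 23 were higher (median 2.43). They included the muscle ubiquitin ligases Trim63 (50.4 scaled CPM in cardiomyocytes against 4.56 in fibroblasts, 3.33), Trim55 (3.18) and Fbxo32 (1.33), and the kelch proteins Klhl41 (3.30) and Klhl31 (2.27). Small heat shock proteins belonged to the same list: Hspb7 had 458 and 446 scaled CPM in cardiomyocytes, against 57.1 and 59.0 in fibroblasts (2.95), and Cryab, alpha-B crystallin, had 319.8 and 300.1 scaled CPM in cardiomyocytes, against 63.5 and 64.2 in fibroblasts (2.27). The myosin chaperone Unc45b (1.93) and the co-chaperone Bag3 (1.35) were higher too.

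At the cell membrane, 23 of 32 genes were higher in cardiomyocytes and 6 were lower. The desmosome genes Pkp2 (3.19), Dsp (2.94), Dsc2 (2.45) and Dsg2 (2.41) and the Popeye proteins Bves (3.12), Popdc2 (2.96) and Popdc3 (2.55), which bind cyclic AMP, were at least 4-fold higher. Gja1, which encodes the main gap junction protein connexin 43, was higher by 1.24, whereas Gjc1, connexin 45, was lower (-0.58). Among the dystrophin partners the change was uneven. The sarcoglycan Sgca (2.03) was far higher, and Sgcd (0.80) and dystrophin itself, Dmd (0.43), were mildly higher. Sgcb had a log2 fold change of -0.07 that was not called, and dystroglycan Dag1 (-0.25) was lower. The laminin receptor subunit Itga7 (53.7 scaled CPM in cardiomyocytes against 81.3 in fibroblasts) and Fhl1 (343 scaled CPM in cardiomyocytes against 545 in fibroblasts) were lower in cardiomyocytes (log2 fold changes of -0.59 and -0.67), although both are known from striated muscle.

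Calcium handling was higher in 19 of 20 genes with a median of 1.79. The calcium release channel Ryr2 had 406 and 400.2 scaled CPM in cardiomyocytes, against 43.1 and 42.3 in fibroblasts (3.23), and the pump inhibitor phospholamban, Pln, had 742 and 721 scaled CPM in cardiomyocytes, against 71.3 and 78.0 in fibroblasts (3.29). The pump that Pln restrains, Atp2a2, stood at 1.99 (1719 scaled CPM in cardiomyocytes against 431 in fibroblasts). The L-type channel pore Cacna1c was higher by 1.38 and its partner Cacnb2 by 0.97, while the auxiliary subunit Cacna2d1 was the lower gene of the list (-0.44). Of the IP3 receptors, which release calcium in most cell types, Itpr1 (-0.69), Itpr3 (-0.42) and Itpr2 (-0.16) were lower. The call of Itpr2 was lost without each of the 4 fresh libraries in turn, with adjusted p of 0.0525 to 0.077 by limma.

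Of the sodium, potassium and pacemaker channels and pumps, 19 of 26 were higher and 5 lower. Kcne1, the small subunit of the slow delayed rectifier, had 42.8 and 44.8 scaled CPM in cardiomyocytes, against 4.79 and 4.75 in fibroblasts (3.07), and its pore Kcnq1 was higher by 1.63. The ATP-sensitive potassium channel was split between its subunits. Its pore Kcnj11 (2.93) and the sulfonylurea receptor Abcc8 (2.88) were higher, whereas the other sulfonylurea receptor, Abcc9, was lower (-0.35). Hcn4, the pacemaker channel, was higher by 0.87. Lower in cardiomyocytes were Kcna5, a potassium channel also found in smooth muscle (23.9 and 23.6 scaled CPM in cardiomyocytes, against 42.3 and 41.0 in fibroblasts, -0.79), and the membrane scaffold ankyrin B, Ank2 (-0.57).

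Hormones and their receptors were divided, with 16 genes higher and 12 lower of 30. Besides Nppb, the atrial peptide Nppa (219 scaled CPM in cardiomyocytes against 20.8 in fibroblasts, 3.36), its processing protease Corin (1.23) and the vasoconstrictor endothelin 1, Edn1 (145 scaled CPM in cardiomyocytes against 23.9 in fibroblasts, 2.58), were higher. The receptor of endothelin on muscle cells, Ednra, was lower (-0.67). The adrenergic receptors took opposite directions within a subfamily: Adra1b was higher by 2.68 and Adra1a lower (-0.99). The beta receptor Adrb1 (1.17) and the muscarinic receptor Chrm2 (1.68), which slows the heart, were higher. The angiotensin receptor Agtr2 (-1.02), the G protein subunit Gnao1 (-1.06) and the angiotensin-converting enzyme Ace (-0.63) were lower.

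Transcription regulators of heart muscle were higher in 21 of 31 and lower in 8. Ankrd1, a stretch-responsive cofactor, had 302 and 290.4 scaled CPM in cardiomyocytes, against 29.2 and 29.2 in fibroblasts (3.32), and the muscle methyltransferase Smyd1 had 153 and 143 scaled CPM in cardiomyocytes, against 15.2 and 16.2 in fibroblasts (3.20). The ventricular factor Irx4 (3.07), the homeodomain proteins Hopx (3.0) and Nkx2-5 (2.87) and the metabolic regulators Ppargc1a (2.86), Esrrg (1.94) and Ppara (1.42) were higher too. Tbx20, needed for chamber and valve formation, had 358 and 369 scaled CPM in cardiomyocytes, against 689.8 and 706 in fibroblasts (-0.94). Mef2c (-0.57), Gata4 (-0.16), Mef2d (-0.18) and the Gata cofactor Zfpm2 (-0.48) were also lower, and Gata6 (0.09) and Mef2a (0.05) were not called. Tbx5 was higher by 1.03 (14.4 and 16.1 scaled CPM in cardiomyocytes, against 6.94 and 7.52 in fibroblasts). All 4 TEAD genes were lower, Tead3 at -0.79, Tead1 at -0.72, Tead4 at -0.30 and Tead2 at -0.28, although the call of Tead4 was lost without cardiomyocyte replicate 2 (adjusted p = 0.0621 by limma).

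Among splicing regulators 5 genes were higher and 8 lower of 15. Rbm20, which controls titin splicing, had 89.95 and 86.9 scaled CPM in cardiomyocytes, against 10.6 and 12.1 in fibroblasts (2.91), and Rbm24 had 70.6 and 68.9 scaled CPM in cardiomyocytes, against 9.88 and 11.2 in fibroblasts (2.67). Rbm38 (1.91), Srpk3 (1.38) and Rbfox1 (1.13) were the other 3 higher genes, of 15. Lower were 8 genes, among them all 3 muscleblind genes, Mbnl3 (-0.38), Mbnl2 (-0.36) and Mbnl1 (-0.22), all 3 polypyrimidine tract binding proteins, Ptbp2 (-0.36), Ptbp3 (-0.28) and Ptbp1 (-0.22), and Celf2 (-0.74).

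Most genes of the mitochondrial energy lists were higher. All 49 genes of the list of nuclear-encoded respiratory chain and ATP synthase subunits, which leaves out the tissue-specific forms of cytochrome c oxidase described further on, were higher and each by at least 2-fold, between 1.03 (Ndufb3) and 2.43 (Cox5a), with a median of 1.65. Cox5a, a subunit of cytochrome c oxidase, had 152 and 147 scaled CPM in cardiomyocytes, against 28.3 and 26.5 in fibroblasts. Summed over the list, the level was 12479 and 12111 scaled CPM in cardiomyocytes, against 3869 and 3838 in fibroblasts. Of 29 fatty acid oxidation genes 28 were higher (median 1.68), and of 32 genes of the citric acid cycle and pyruvate entry 31 (median 1.34). Acadl, which oxidizes long-chain acyl-CoA, had 385 and 365 scaled CPM in cardiomyocytes, against 65.9 and 68.7 in fibroblasts (2.47). The 1 lower gene of each list was Cpt1a (-0.42), the widely expressed form of the enzyme that admits fatty acids to mitochondria, and pyruvate carboxylase Pcx (-0.36).

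Lists of the machinery that makes mitochondria had smaller medians than those of ATP production. The mitochondrial ribosome was higher in 51 of 54 genes with a median of 0.66, and import and folding in 32 of 35 with a median of 0.74. The chaperonins Hspd1 (788 scaled CPM in cardiomyocytes against 206 in fibroblasts, 1.93) and Hspe1 (1.84) led the second list. In the list of fission, fusion and genome maintenance, 16 of 24 were higher and 4 lower, with a median of 0.38. The fusion proteins Mfn2 (176 and 180.1 scaled CPM in cardiomyocytes, against 67.3 and 68.0 in fibroblasts, 1.39) and Mfn1 (1.01) and the mitochondrial helicase Peo1 (1.31) were the 3 genes at 2-fold or more. Tfam, which packages mitochondrial DNA, was higher by 0.40, and lower were the transcription factor Nrf1 (-0.54), the mitochondrial RNA polymerase Polrmt (-0.33), the cardiolipin remodeller Taz (-0.32) and the DNA polymerase Polg (-0.22). The respiratory chain and mitochondrial ribosome lists hold short genes, and the median over all genes of the shortest length class was 0.213.

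Cofactor and iron genes were higher in 31 of 35 genes. The transferrin receptor Tfrc, which brings iron into the cell, had 59.6 and 59.8 scaled CPM in cardiomyocytes, against 10.5 and 10.0 in fibroblasts (2.49). Hfe2, hemojuvelin, known from striated muscle and liver, had 12.99 and 11.8 scaled CPM in cardiomyocytes, against 1.42 and 1.98 in fibroblasts (2.56), and Adck3, a kinase-like protein needed for coenzyme Q, had 51.7 and 50.9 scaled CPM in cardiomyocytes, against 9.53 and 10.1 in fibroblasts (2.33). The 7 coenzyme Q genes Coq2 to Coq7 and Coq9 were all higher, between 0.24 (Coq4) and 1.34 (Coq9). The iron exporter Slc40a1 was lower (-0.35). Breakdown of branched-chain amino acids and ketones was higher in 22 of 24 genes, though mostly by little (median 0.43), and the cytosolic transaminase Bcat1 was lower (-1.05) while the mitochondrial Bcat2 was higher (0.71).

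In glycolysis and lactate exchange, 19 of 26 genes were higher and 5 were lower. Muscle enolase Eno3 had 315 and 299 scaled CPM in cardiomyocytes, against 26.6 and 28.7 in fibroblasts (3.45), Pgam2 had 119.8 and 111 scaled CPM in cardiomyocytes, against 12.6 and 12.5 in fibroblasts (3.16), and Ldhb, the lactate dehydrogenase that favours lactate use, had 370.1 and 353 scaled CPM in cardiomyocytes, against 62.0 and 61.5 in fibroblasts (2.54). The lower genes were 3 of the 4 regulatory PFKFB enzymes, Pfkfb2 (-0.50), Pfkfb1 (-0.37) and Pfkfb3 (-0.25), and the lactate transporters Slc16a3 (-0.42) and Slc16a7 (-0.31). The lactate transporter Slc16a1 was higher by 1.48. In glycogen metabolism 14 of 24 were higher and 5 lower, with muscle phosphorylase Pygm at 1.97 and the phosphorylase kinase subunit Phka2 at -0.45. Among the genes of the phosphocreatine and adenine nucleotide pools, Ckmt2 (3.69), Ckm (3.38), Adssl1 (2.43) and Ak1 (1.62) were higher, and Gatm, which begins creatine synthesis, was lower (28.7 and 28.8 scaled CPM in cardiomyocytes, against 53.2 and 53.1 in fibroblasts, -0.88).

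Genes that encode alternative forms of the same protein often parted. For cytochrome c oxidase the heart and skeletal muscle forms Cox8b, Cox7a1 and Cox6a2 were higher by 3.94, 3.71 and 3.54, beside 0.93, 1.91 and 0.50 for Cox8a, Cox7a2 and Cox6a1. Cox6a2 had 189 and 189 scaled CPM in cardiomyocytes, against 16.3 and 15.3 in fibroblasts, while Cox6a1 had 152 and 152 scaled CPM in cardiomyocytes, against 109 and 106 in fibroblasts. Ndufa4 was higher by 2.01 and Cox4i1 by 1.76, and their hypoxia-associated relatives Ndufa4l2 and Cox4i2, which are also pericyte markers, were lower, at -1.14 and -0.61. Ckm had 565 and 569 scaled CPM in cardiomyocytes, against 53.7 and 54.6 in fibroblasts, whereas the brain form Ckb had 106 and 108 scaled CPM in cardiomyocytes, against 107 and 104 in fibroblasts and overlapped (0.02, not called). Pgam2 stood at 3.16 and Pgam1 at 0.06, which was not called (109.8 and 106 scaled CPM in cardiomyocytes, against 104 and 103 in fibroblasts). Acetyl-CoA carboxylase parted into Acacb, the form at mitochondria, at 1.70, and Acaca, the lipogenic form, at -0.48. The mitochondrial isocitrate dehydrogenase Idh2 (1.32) was higher, and its cytosolic counterpart Idh1 (-0.35) lower. Eef1a2, the elongation factor of muscle and neurons, stood at 3.26 and Eef1a1 at 0.34. Muscle caveolin Cav3 stood at 3.34 and Cav1 at 0.30. Muscle alpha-actinin Actn2 was higher by 3.37, and Actn1 was lower (-0.25). The changes of a pair were not tested against each other.

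**Figure D3:**
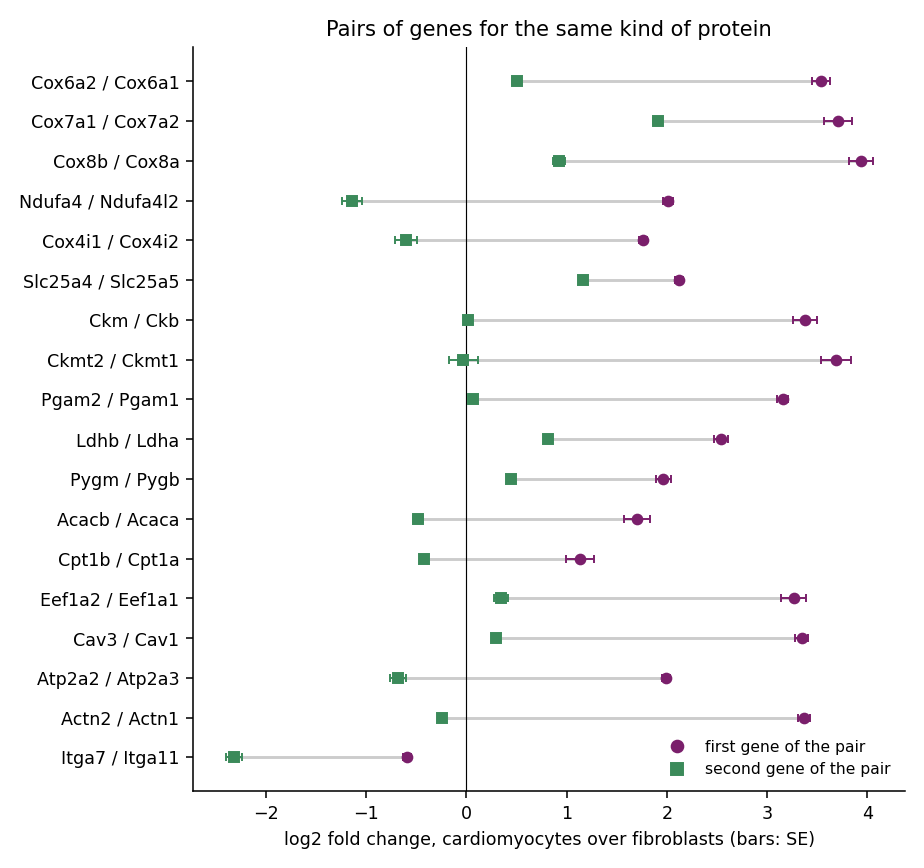
Log2 fold change of cardiomyocytes over fibroblasts for 18 pairs of genes that encode the same kind of protein, with bars of 1 SE; circles are the first gene named and squares the second. In 17 pairs the first gene lies above 0 and to the right of the second; in the pair of integrins both lie below 0, Itga7 at -0.59 and Itga11 at -2.32.

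Cytosolic translation was higher in all 43 genes of the list, with a median of 0.63, and Eef1a2 and Rps14 (1.00) were the 2 genes at 2-fold or more. The sum over the list was 35332 and 34451 scaled CPM in cardiomyocytes, against 24800.4 and 24855 in fibroblasts.

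Stress genes differed between the fresh preparations, and not in 1 direction. Heat shock genes were higher in 12 of 13. Hspa1b had 7951 and 8708 scaled CPM in cardiomyocytes, against 2405 and 2226 in fibroblasts (1.85), and Hspa1a had 6499 and 7834 scaled CPM in cardiomyocytes, against 1729 and 1412 in fibroblasts (2.19). These inducible HSP70 genes are close copies, and the split of reads between them is uncertain. Per kb of exon they ranked 2 and 5 among all genes in cardiomyocytes, against 27 and 54 in fibroblasts. Hsp90aa1, the inducible HSP90, had 3915 and 3879.7 scaled CPM in cardiomyocytes, against 842 and 829 in fibroblasts (2.22), and Hsph1 had 1389.5 and 1389.7 scaled CPM in cardiomyocytes, against 320.1 and 325 in fibroblasts (2.11). The collagen chaperone Serpinh1 was not called (0.06). Heat shock genes summed to 32483 and 34399.6 scaled CPM in cardiomyocytes, against 12581 and 12092 in fibroblasts.

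Immediate early genes, which answer within minutes to growth signals, serum or tissue handling, were lower in 16 of 25 and higher in 7. Zfp36, which destabilizes inflammatory messages, had 449 and 458 scaled CPM in cardiomyocytes, against 1480.4 and 1481 in fibroblasts (-1.71), and Fosb had 339.7 and 337 scaled CPM in cardiomyocytes, against 958 and 983 in fibroblasts (-1.52). Socs3 (-1.48), Btg2 (-1.39), Fos (-0.92) and Nr4a1 (-0.82) were lower too, while Jun was not called (0.07). In contrast Fosl1, a Fos family member, had 12.2 and 14.2 scaled CPM in cardiomyocytes, against 1.19 and 1.32 in fibroblasts (2.96), and Maff was higher by 1.34. The list summed to 11311 and 11518 scaled CPM in cardiomyocytes, against 16228 and 16110.4 in fibroblasts. Both preparations therefore held these transcripts, and handling during isolation cannot be told apart from cell type.

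The amino acid and endoplasmic reticulum stress genes were split. Chac1, which degrades glutathione, had 11.0 and 11.5 scaled CPM in cardiomyocytes, against 0.888 and 0.482 in fibroblasts (3.33), and the stress hormone Gdf15 had 50.1 and 60.6 scaled CPM in cardiomyocytes, against 6.35 and 5.52 in fibroblasts (3.12). With Slc7a11, Sesn2 (1.77), Ddit4 (1.65) and Trib3 (1.05) they were at least 2-fold higher, while Atf4, a factor known to drive this response, was not called (-0.01), and Ddit3 (-0.60) and Atf5 (-0.82) were lower. Oxidative stress genes were higher in 16 of 22, with the mitochondrial superoxide dismutase Sod2 at 131 and 133 scaled CPM in cardiomyocytes, against 35.1 and 34.1 in fibroblasts (1.92). Among p53 targets 12 of 18 were higher, and the desmosomal protein Perp had 64.9 and 67.0 scaled CPM in cardiomyocytes, against 7.68 and 7.85 in fibroblasts (3.01). Of the hypoxia genes 14 of 20 were higher, led by Pdk1 (1.44) and Adm (1.31).

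**Figure D4:**
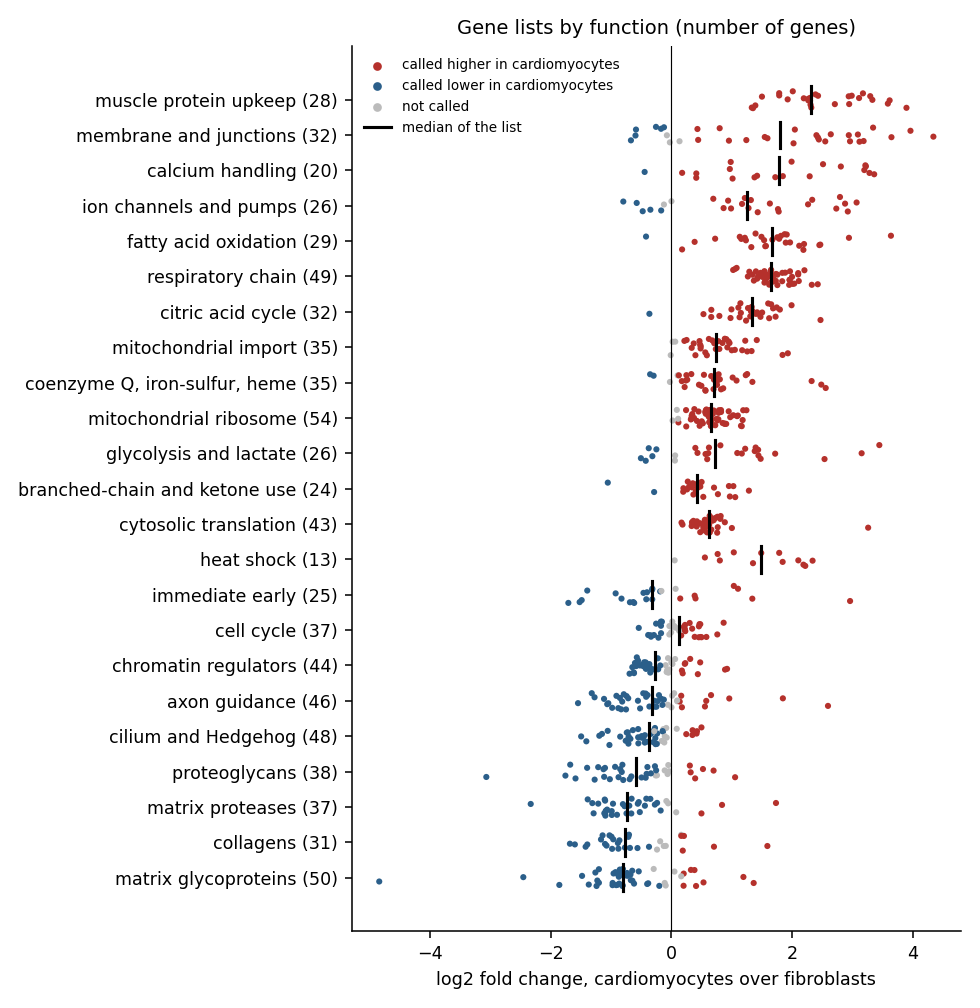
Log2 fold change of cardiomyocytes over fibroblasts for the genes of 23 lists by function, with the number of genes in brackets; red points are called higher in cardiomyocytes, blue called lower, grey not called, and black bars mark each list's median. The respiratory chain points lie between 1.03 and 2.43, and the matrix lists at the bottom have medians between -0.79 and -0.58 beside -0.05 for all genes.

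On the fibroblast side, again among genes with 10 scaled CPM or more in the higher cell type, the 20 largest differences lay between -4.84 and -1.79. Mmrn1, multimerin 1, a secreted protein of platelets and endothelial cells, had 0.991 and 1.04 scaled CPM in cardiomyocytes, against 42.1 and 43.7 in fibroblasts (-4.84, SE 0.13, adjusted p = 6.3e-17 by limma). Acan, the proteoglycan aggrecan, had 2.95 and 2.62 scaled CPM in cardiomyocytes, against 27.0 and 26.9 in fibroblasts (-3.07), and Olfr78, an olfactory receptor also found in vascular smooth muscle, had 4.99 and 3.91 scaled CPM in cardiomyocytes, against 33.8 and 34.3 in fibroblasts (-2.81). Reelin, Reln, had 16.2 and 18.8 scaled CPM in cardiomyocytes, against 98.4 and 97.1 in fibroblasts (-2.45). The protease inhibitor Serpina3n (-2.33), endosialin Cd248 (-2.16), the potassium channel Kcnj15 (-2.03) and the secreted protein C1qtnf7 (-1.95) were also among them. The cytokine Il6 had 7.38 and 7.36 scaled CPM in cardiomyocytes, against 29.2 and 29.7 in fibroblasts (-1.93). Dnm3os, a long noncoding RNA that carries the microRNAs of the miR-199a and miR-214 cluster, had 7.67 and 9.16 scaled CPM in cardiomyocytes, against 32.6 and 34.0 in fibroblasts (-1.93). Its window is shown since it is the noncoding member of this set, and it lies antisense to Dnm3. Since the strand setting of the counting is not given in the sources used here, reads of the pair may be mixed. Capitals mark a CArG box, the motif bound by serum response factor, 33 bases before the start.
Dnm3os, chr1:162217373-162217622, plus strand: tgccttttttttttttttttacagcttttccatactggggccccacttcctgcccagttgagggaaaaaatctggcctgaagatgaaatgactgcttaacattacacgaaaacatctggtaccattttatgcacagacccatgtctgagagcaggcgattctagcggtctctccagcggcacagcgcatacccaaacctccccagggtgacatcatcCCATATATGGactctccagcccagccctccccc

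The neurotrophin receptor Ntrk3 had 3.94 and 4.38 scaled CPM in cardiomyocytes, against 17.0 and 17.3 in fibroblasts (-1.92). The glial factor receptor Gfra2 (-1.87), Sema5b (-1.90), Pianp (-1.95), the matrix protein Abi3bp (-1.89) and the dipeptidase Dpep1 (-1.79) were lower too.

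Matrix genes were lower in cardiomyocytes across 4 lists. Collagens were lower in 21 of 31 with a median of -0.77, matrix glycoproteins in 37 of 50 (-0.79), proteoglycans and hyaluronan genes in 26 of 38 (-0.58), and proteases with their inhibitors in 31 of 37 (-0.74). The collagen list holds long genes, and 59.2% of all genes in the longest class were lower. The abundant fibrillar collagen Col1a1 had 3511 and 3559 scaled CPM in cardiomyocytes, against 7632 and 7248 in fibroblasts (-1.07), and Col3a1 stood at -0.86. With quantile normalization Col3a1 was not called. That method gives the same value to the same rank in every library. Col3a1 is among the most abundant genes of both cell types, so the method says little about the size of its change. Among less abundant chains, Col8a2 stood at -1.68, Col11a1 at -1.60 and Col12a1 at -1.42.

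Of the basement membrane collagens, Col4a1 was not called (6314 and 6063 scaled CPM in cardiomyocytes, against 6795 and 6689 in fibroblasts, -0.12), Col4a2 was lower (-0.37), and Col4a5 was higher by 0.71. The transmembrane collagen Col23a1 was the largest increase of its list, with 78.2 and 75.9 scaled CPM in cardiomyocytes, against 24.3 and 26.2 in fibroblasts (1.59). The secreted CCN proteins Ctgf (590.2 and 603 scaled CPM in cardiomyocytes, against 234 and 228 in fibroblasts, 1.37) and Cyr61 (1705 scaled CPM in cardiomyocytes against 744 in fibroblasts, 1.20) were higher in cardiomyocytes, and their relative Nov was lower (-0.96). Several elastic fibre genes were lower, with Ltbp2 at -1.86, Mfap4 at -1.48, Loxl1 at -1.37 and Fbn1 at -1.23, while Eln was slightly higher (0.21). Small leucine-rich proteoglycans were among the lower genes, with Prelp at -1.67 (138 and 139 scaled CPM in cardiomyocytes, against 443 and 443 in fibroblasts), Fmod at -1.59 and Dcn, decorin, at -0.81. Of the proteases and inhibitors, 7 genes of the ADAMTS and ADAMTS-like family were lower by at least 2-fold, between -1.08 (Adamtsl3) and -1.29 (Adamts2, which trims procollagen). Mmp9, a gelatinase that neutrophils carry, was higher (28.1 and 26.8 scaled CPM in cardiomyocytes, against 7.71 and 8.07 in fibroblasts, 1.74), as was Plau (0.84).

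Among genes that mark fibroblasts, 26 of 38 were lower in cardiomyocytes and 6 higher, with a median of -0.61. The platelet-derived growth factor receptor Pdgfra had 196 and 199 scaled CPM in cardiomyocytes, against 464 and 472 in fibroblasts (-1.24), and the collagen receptor Ddr2 had 92.7 and 94.5 scaled CPM in cardiomyocytes, against 248 and 249 in fibroblasts (-1.4). The epicardial lineage factor Tcf21 stood at -0.99 and the mesenchymal factor Prrx1 at -1.10. Vimentin, Vim, often used as a fibroblast marker, was not called (3294 and 3365 scaled CPM in cardiomyocytes, against 3107 and 3121 in fibroblasts, 0.10), and with quantile normalization it was called lower (-0.21, adjusted p = 0.00402 by limma). Snai1 (0.56) and Foxc1 (0.54) were higher in cardiomyocytes.

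The primary cilium and Hedgehog list was lower in 34 of 48 genes, with a median of -0.37. The Hedgehog response gene Gli1 had 14.0 and 15.1 scaled CPM in cardiomyocytes, against 41.1 and 42.5 in fibroblasts (-1.49), Gli2 stood at -1.41, Gli3 at -1.02, and Hhip and Gas1, which bind the ligand, at -1.19 and -1.15. The signal transducer Smo (-0.49) and the receptor Ptch1 (-0.41) changed less. Among structural cilium genes the direction was mixed, with Dync2h1 (-0.71) and Ift140 (-0.68) lower and Ift20 (0.42) and Ift81 (0.35) higher.

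Axon guidance genes, which also steer vessels and mesenchyme, were lower in 31 of 46, beside 59.2% of all genes in the longest class, where the list's median exon length lies. Sema3c, which guides the cells of the outflow tract, stood at -1.27, its relative Sema3d at -1.04, and the receptors Ephb2 and Robo2 at -1.55 and -1.11. A pair of ephrin system genes went the other way. The ligand Efnb3 had 34.7 and 36.6 scaled CPM in cardiomyocytes, against 5.47 and 5.48 in fibroblasts (2.60), and the receptor Epha2 had 156 and 151 scaled CPM in cardiomyocytes, against 43.9 and 40.8 in fibroblasts (1.85).

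Signalling pathways held genes that differed in either direction. In the Wnt list 19 of 36 were lower and 11 higher. The secreted inhibitors Sfrp2 (23.1 and 22.7 scaled CPM in cardiomyocytes, against 73.9 and 71.2 in fibroblasts, -1.64) and Frzb (-1.11) and the ligand Wnt5b (-1.16) were lower, while Wnt11, a ligand of heart muscle formation, was higher (1.22), as were the receptor Fzd5 (1.46) and the pathway target Axin2 (0.70). In the TGF-beta and BMP list 18 of 36 were lower and 12 higher. Bmp7 had 11.0 and 11.9 scaled CPM in cardiomyocytes, against 2.04 and 1.72 in fibroblasts (2.33), and the heart-restricted Bmp10 stood at 1.66. The antagonists Nog (1.96), Fst (1.94) and Sost (1.64) were higher too, and Gdf10 (-1.75), Gdf6 (-1.51) and the antagonist Chrdl1 (-1.20) lower.

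Growth factors were nearly even, with 20 higher and 22 lower of 47. In some systems the ligand and its receptor differed in opposite directions. The ligand Pdgfa was higher in cardiomyocytes (16.1 and 14.9 scaled CPM in cardiomyocytes, against 5.6 and 4.79 in fibroblasts, 1.5), whereas its receptor Pdgfra was lower. The EGF family ligands Hbegf (108 and 105 scaled CPM in cardiomyocytes, against 25.2 and 26.4 in fibroblasts, 2.02) and Nrg1 (1.24) were higher, with the neuregulin receptor Erbb4 (1.33) also higher and Egfr lower (-1.02). The vessel growth factors parted: Vegfb (1.14) and Vegfa (0.48) were higher, and the lymphatic factors Figf (-1.41) and Vegfc (-0.42) lower. Fgf12 (2.02) and Fgf13 (1.90), which act inside the cell on sodium channels, and the secreted Fgf9 (1.41) were higher, and Fgfr1 was lower (-0.93).

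Immune signals were mixed. In the complement and chemokine list 21 of 40 were lower and 14 higher. Ccl24 (-1.12), the terminal complement gene C7 (-1.08) and the stromal chemokine Cxcl12 (-0.76) were lower, and Ccl5 (1.34), Cx3cl1 (1.30) and Cxcl10 (1.12) higher. Of the interferon and antigen presentation genes, 18 of 36 were higher and 9 lower. Ifit1 had 4.12 and 3.83 scaled CPM in cardiomyocytes, against 0.522 and 0.652 in fibroblasts (2.04), Rsad2 stood at 1.78 and Isg15 at 1.55, while Oas2 (-0.82) and Ifit2 (-0.48) were lower. The class I gene H2-D1 was lower (-1.34), but it is polymorphic with close copies, and its reads are uncertain.

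The remaining lists were divided. Nuclear receptors and retinoid genes were lower in 15 and higher in 9 of 31, with the retinoic acid degrading enzyme Cyp26a1 at -1.39 and the retinoic acid synthesizing enzyme Aldh1a2 at -0.66. Positional genes included Tbx2 (-1.42) and Hoxd4 (-1.28) on the lower side and Hoxa5 (1.29) on the higher side. Of the imprinted genes 15 of 27 were lower (55.6%, beside 59.2% of all genes in the longest class), among them Meg3 (389.9 and 391 scaled CPM in cardiomyocytes, against 997 and 1014 in fibroblasts, -1.36) and Dlk1 (-1.0) of the same cluster. H19 (0.60) and its neighbour Igf2 (0.56) were higher. In the lysosome list 15 were higher and 14 lower of 39. All 7 called subunit genes of the V-type ATPase were higher, with Atp6v1e1 at 1.25, and Atp6v0a1 and Atp6v0d1 were not called. The protease Ctsh was higher (0.69), and beta-galactosidase Glb1 (-0.69) and the protease Lgmn (-0.56) were lower.

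Cell cycle genes were higher in 18 and lower in 11 of 37, and the list's median was 0.13. The proliferation marker Mki67 was not called (409.6 and 411 scaled CPM in cardiomyocytes, against 407 and 431 in fibroblasts, -0.03). Ccnb1, cyclin B1, was higher (0.58), the 6 MCM helicase genes of the list were lower, between -0.17 (Mcm7) and -0.38 (Mcm2), and the inhibitor Cdkn1a was higher (0.87). Cholesterol synthesis was divided, with 10 higher and 8 lower of 22, and none of the 22 changed by 2-fold. Chromatin regulators were lower in 25 of 44 with none at 2-fold. Their median was -0.26, beside -0.234 for all genes of the longest class. Among Polycomb genes Cbx8 (0.89) was higher, and Cbx7 (-0.62) was lower.

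Markers of other cells of the heart also differed between the preparations. Smooth muscle and pericyte genes were lower in 16 of 19. Smooth muscle myosin Myh11 had 30.7 and 31.4 scaled CPM in cardiomyocytes, against 159 and 165 in fibroblasts (-2.36), and the list summed to 2437 and 2399 scaled CPM in cardiomyocytes, against 3569.6 and 3614 in fibroblasts. The list includes Des, which heart muscle also expresses. Lymphatic markers were lower in 7 of 8 and summed to 594 and 593 scaled CPM in cardiomyocytes, against 1013 and 1001 in fibroblasts. The lower genes include Thy1 itself, Mmrn1 and Reln, and the higher one was Prox1, the factor that defines lymphatic endothelium and that heart muscle also expresses (31.7 and 33.3 scaled CPM in cardiomyocytes, against 16.6 and 16.8 in fibroblasts, 0.94), while the lymphatic chemokine Ccl21a was at 0 in the 4 libraries. Macrophage markers were lower in 15 of 21 and summed to 1128 and 1113 scaled CPM in cardiomyocytes, against 1666 and 1652 in fibroblasts. Cx3cr1 had 19.5 and 20.7 scaled CPM in cardiomyocytes, against 79.1 and 77.1 in fibroblasts (-1.93), and F13a1, which resident macrophages express, had 23.3 and 23.1 scaled CPM in cardiomyocytes, against 83.4 and 83.7 in fibroblasts (-1.82). The call of Lyz2 (0.17), 1 of the 2 higher genes, was lost without cardiomyocyte replicate 1 (adjusted p = 0.0514 by limma).

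Granulocyte and mast cell markers parted. The mast cell proteases Tpsb2 (1.07 and 1.08 scaled CPM in cardiomyocytes, against 8.96 and 7.17 in fibroblasts, -2.44), Cma1 (-2.07), Cpa3 (-2.07) and Mcpt4 (-1.59) were lower. The neutrophil proteins S100a9 (138 and 135 scaled CPM in cardiomyocytes, against 28.6 and 27.7 in fibroblasts, 2.26), S100a8 (1.91), Camp (2.22) and Ngp (1.67) were higher, and Elane, an early granulocyte protease, was below 1 CPM in the 4 libraries. Lymphocyte markers were higher in 5 and lower in 1 of 8, all in a list at low levels. Without the T cell gene Cd3d and the B cell gene Ms4a1, which passed through cardiomyocyte libraries alone, 3 of 6 were higher and 1 lower. The B cell gene Cd79a was higher (1.81), and the 1 lower gene was Cd4 (-0.83), known from T cells. The list summed to 29.6 and 29.2 scaled CPM in cardiomyocytes, against 18.95 and 17.2 in fibroblasts. Endothelial markers were higher in 12 and lower in 3 of 20, and summed to 6631 and 6590.5 scaled CPM in cardiomyocytes, against 5135 and 5176 in fibroblasts, led by Vwf (1.59) and Plvap (1.22). The defining gene Cdh5 was not called (0.09), and 1 of the 3 lower genes, Robo4, lost its call without cardiomyocyte replicate 2 or fibroblast replicate 2 (adjusted p = 0.0747 and 0.0545 by limma).

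Of the red cell genes Slc4a1 (9.19 and 9.41 scaled CPM in cardiomyocytes, against 0.951 and 0.978 in fibroblasts, 2.74) and Alas2 (2.45) were higher. The globin rows Hba-a2, Hbb-b1 and Hbb-b2 were listed at 0, and Hba-a1 reached at most 0.013. The row named Beta-s, a RefSeq synonym of a beta-globin gene, was looked at after its values were seen, and had 538 and 426 scaled CPM in cardiomyocytes, against 65.4 and 87.8 in fibroblasts (2.65, SE 0.55, adjusted p = 0.000251 by limma). Epicardial markers were near even (7 higher, 5 lower of 14), and so were valve and endocardial markers (4 and 5 of 10). Schwann cell and neuron markers summed to 112 and 109.7 scaled CPM in cardiomyocytes, against 99.6 and 97.6 in fibroblasts, with Sox10 below 1 CPM. The fat cell genes Adipoq and Plin1 were below 1 CPM, whereas Cidea, also a lipid droplet gene, was higher (2.69). The part of these cells in the immune, vascular and matrix results above was not tested.

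**Figure D5:**
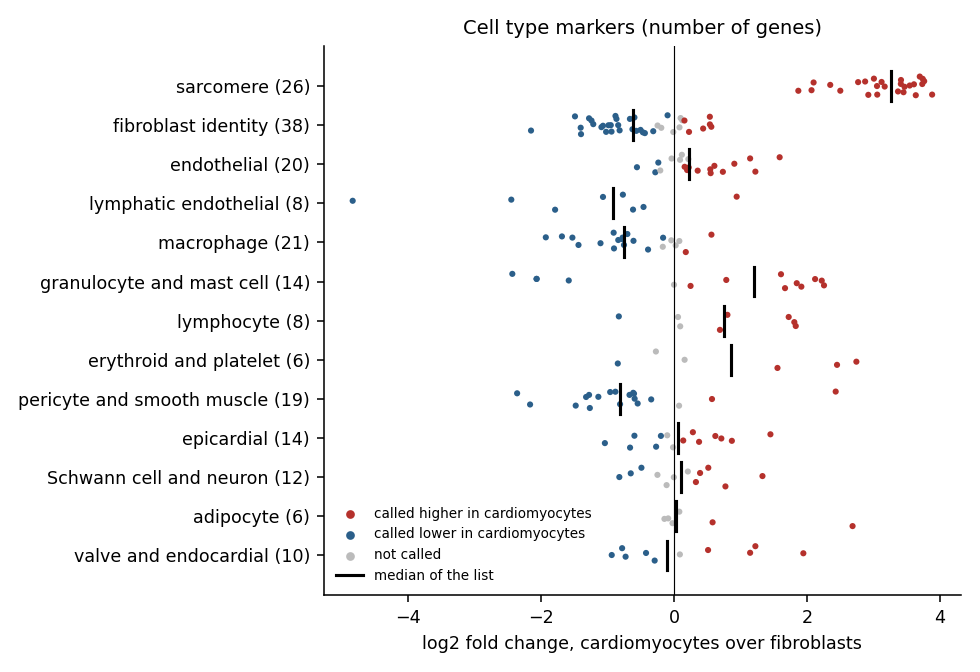
Log2 fold change of cardiomyocytes over fibroblasts for sarcomere genes, fibroblast identity genes and markers of 11 other cell types, with the number of genes in brackets; red points are called higher in cardiomyocytes, blue called lower, grey not called, and black bars mark medians. Sarcomere genes lie between 1.87 and 3.88, and the mast cell proteases lie on the other side of 0 from the neutrophil genes.

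Promoter windows of 250 bases before to 50 after the start were matched for 10782 of the 13623 genes from RefSeq (GRCm38.p6), with the first window used for 2183 genes that have several. The motifs were searched on both strands. The MEF2 site and the CArG box, both AT-rich, were searched by their usual consensus. The TEAD motif searched was CATTCC. The site of GATA factors was searched as the letters AGATAA, and the E box as CAGCTG. The TATA box was searched as TATAAA, which can also lie within a MEF2 site. A MEF2 site was found in 15.4% of 65 windows of genes at least 8-fold higher in cardiomyocytes, in 4.69% of 896 windows of genes at least 2-fold higher, in 3.17% of 410 windows of genes at least 2-fold lower, and in 1.83% of all windows. Among 16 windows of genes at least 4-fold lower the share was 6.25%, or 1 window. The 10 genes with a site among the 8-fold higher were C130080G10Rik, Klhl41, Lrrc39, Mybpc3, Myoz2, Pgam2, Ppp1r3a, Synpo2l, Ttn and Xirp2. Xirp2 passed the 1 CPM rule through the cardiomyocyte libraries alone. All the sets include genes that passed through 1 cell type alone, and the motif shares without them were not counted. In the same order of the first 4 sets, the E box was in 41.5%, 16.6%, 19.3% and 15.2%, and the M-CAT motif in 27.7%, 13.8%, 14.6% and 12.1%. The GATA site was in 20%, 10.5%, 5.12% and 6.46%, the TATA box in 20%, 13.4%, 8.78% and 7.4%, and the CArG box in 6.15%, 2.01%, 1.46% and 1.34%. In the 16 windows of genes at least 4-fold lower, the E box was in 25%, the M-CAT motif in 12.5%, the GATA site in 12.5%, the TATA box in 18.8% and the CArG box in none. Base composition moved with these sets, since median GC content was 54.7%, 58.3%, 59% and 60.7%, and 54.7% in the 4-fold lower set, and its part in the shares was not tested.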

How the data were processed

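The CPM values are the deposited ones, with 1 column per library, each summing to 1000000. Per the submitters' processing notes, FastQC, TopHat2 2.1.0, HTSeq 0.6.1p1 and the build mm10 were used. No source used here names the gene annotation or says whether reads were counted by strand. Per the labels' protocols, libraries were made with a stranded mRNA kit.

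CPM were divided by median-of-ratios library factors (0.966 to 1.06) and taken as log2(scaled CPM + 0.5). Genes with a CPM of 1 or more in at least 2 of 12 libraries (13977) entered 1 limma fit (limma 3.58.1, R 4.3.3, trended prior) with a mean for each of 6 groups and 6 residual degrees of freedom, and adjusted p-values are over all of them. Steps of 1 read were recovered from the CPM (100% of values whole within 0.1 read), and edgeR 4.0.16 on those reads was an alternative. With 2 libraries a side, the smallest p of an exact permutation test is 0.333, and none was run. Replicates of each fresh cell type differed by more than sampling noise, with a chi-square per degree of freedom of 4.23 in cardiomyocytes and 3.61 in fibroblasts. The script was tested on simulated data.

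The members and gene lists were chosen with earlier results of these data known. Genes named are the 20 largest changes each way (10 scaled CPM or more in the higher group, no overlap of libraries, named models, outside the sarcomere list on the cardiomyocyte side), up to 4 leading members of each list and the 2 largest the other way, and fixed families of related genes. Other list members named were chosen after their values were seen. Some genes that this rule names are not reported here. Exon lengths are from GENCODE vM21. Counts without the genes that passed the 1 CPM rule through 1 cell type alone were added after the data were seen. Other alternatives varied scaling, pseudocount, filter, libraries in the fit, prior, replicate block and test.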

Additional observations from a re-analysis of the deposited data

How the results depend on the processing

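Across 16 alternatives the count of genes higher in cardiomyocytes (4853) lay between 4320 with a filter of 5 CPM and 5516 with only the 4 fresh libraries in the fit, and the count of lower genes (5754) between 5229 with that filter and 6228 with quantile normalization. At 2-fold, the higher genes (1151) lay between 820 with a pseudocount of 2 and 1272 with edgeR on recovered reads. The lower genes (557) were 327 with a pseudocount of 2, which pulls low genes towards 0 by construction, and 835 with quantile normalization. edgeR called 4677 genes higher and 5864 lower. The fit of only the 4 fresh libraries called 5480 genes lower, fewer than its 5516 higher. Leaving out 1 fresh library at a time, with the lone library of its group assumed to vary like the other groups, gave 4476 to 4551 higher, 5311 to 5383 lower, 1138 to 1170 higher at 2-fold and 543 to 585 lower at 2-fold. Of 375 named genes (364 called), 17 changed their call under some alternative. Vim was the 1 that reversed, to -0.21 with quantile normalization against 0.10, which was not called; the cause was not tested. Without 1 library the calls of Itpr2, Lyz2, Robo4, Tead4, Cacna1h and Hspg2 were lost, and no called value of a named gene moved by over 0.5 log2 units. Small list counts moved by over 1.5 times without 1 library: the higher collagens were 3 in place of 5 without cardiomyocyte replicate 2 or fibroblast replicate 1, the higher macrophage markers 1 in place of 2 without cardiomyocyte replicate 1, the lower endothelial markers 1 in place of 3 without cardiomyocyte replicate 2 or fibroblast replicate 2, and the lower glycolysis genes 3 in place of 5 without cardiomyocyte replicate 2. Whether cardiomyocyte and fibroblast libraries with the same replicate number share an origin is not known. Deviations of such libraries correlated at -0.005, which cannot exclude a shared origin with little effect on expression. With the replicate block the counts were 4839 higher and 5731 lower, and 1151 and 557 at 2-fold. With 2 libraries per cell type and 49320858 to 90328498 reads, counting error limits genes near 1 CPM most.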

Other observations

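Most genes with a 2-fold change lay outside the lists, 781 of the 1151 higher in cardiomyocytes (67.9%) and 450 of the 557 lower (80.8%). Both sets include genes that passed the 1 CPM rule through 1 cell type alone. The examples here were chosen after their values were seen. Plin5, a lipid droplet protein that ties droplets to mitochondria, had 10.8 and 10.3 scaled CPM in cardiomyocytes, against 0.783 and 0.874 in fibroblasts (3.05 on the log2 scale), and it passed the 1 CPM rule through the cardiomyocyte libraries alone. Its relative Plin4 stood at 2.70, and Fitm1, which helps droplets form, at 3.35. Other examples were the myofibril assembly protein Nrap (155 and 154 scaled CPM in cardiomyocytes, against 15.3 and 16.5 in fibroblasts, 3.24), the thin-filament cap Tmod1 (2.98), the formin Fhod3 (2.98) and the cardiac kinases Mylk3 (2.87) and Alpk3 (2.94), all higher. Ddc, which makes dopamine and serotonin, had 33.0 and 33.8 scaled CPM in cardiomyocytes, against 3.41 and 4.6 in fibroblasts (2.92), and the epoxide hydrolase Ephx2 had 49.9 and 48.5 scaled CPM in cardiomyocytes, against 5.57 and 6.51 in fibroblasts (2.93). Arc, an immediate early gene best known from neurons, had 144 and 142 scaled CPM in cardiomyocytes, against 19.7 and 19.8 in fibroblasts (2.83), which differs in direction from most of the immediate early list.

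Some genes known from neutrophils, outside the marker lists, were higher in cardiomyocytes, with Fpr1 at 2.78, Clec4d at 2.65, Il1rn at 2.53, Stfa3 at 2.21 and Asprv1 at 2.71. On the fibroblast side, Fndc1 was the most abundant of the examples, with 418 and 422 scaled CPM in cardiomyocytes, against 1196 and 1182 in fibroblasts (-1.50). The mesenchymal gene Islr stood at -1.66 and the fibrillar collagen Col24a1 at -1.68. The smooth muscle genes Mylk (-1.64) and Actg2 (-1.64) and the macrophage genes Siglec1 (-1.79) and Osm (-1.54) were lower in cardiomyocytes as well.

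At the edge of the 1 CPM rule, Dyx1c1 was just inside with a second highest value of 1.005 CPM and Asb5 with 1.009 CPM. Angptl6 and Gzmb were just outside, both with 0.9949 CPM.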
